A study of Mus musculus with 6 samples.

Results

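The genes described here carry glucose into the cell, break it down to pyruvate and lactate, divert it through the pentose phosphate pathway, or store and release it as glycogen. They were chosen by name as a list of 33 genes, and all 33 had a row among the 51789 genes of the count table. Messenger RNA was read from mouse bone marrow neutrophils that had been picked with Ly6G beads, to a purity the labels put above 95%. The Lexogen QuantSeq chemistry yields 1 tag near the 3′ end of each polyadenylated RNA, so that a count does not grow with transcript length. There were 3 libraries labelled KO, a knockout of Snph (the gene of syntaphilin, which anchors mitochondria on microtubules), and 3 labelled WT, its control. The labels give no strain, age, deleted exon, Cre driver or treatment, nor do they say that libraries came from separate mice. P-values therefore reflect only how these 6 libraries vary, and that variation may be technical.

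Total counts ran from 7179569 to 9165218 in the KO-labelled and from 7018388 to 9664381 in the WT-labelled libraries. Snph itself had 5, 2 and 8 counts in KO 1, 2 and 3 and 0 in each WT-labelled library. That split goes against the labels, and every direction below rests on the labels as they stand. The 16 neutrophil markers checked were all tested, and 2 of them passed as higher. Here and for the markers that follow, the test was edgeR's quasi-likelihood test at an adjusted p under 0.05. The 16 summed to 327500 to 349300 CPM in the KO-labelled and 286700 to 308000 CPM in the WT-labelled libraries. CPM are counts set against a library total scaled by edgeR's TMM factors. Most of each sum came from S100a8 and S100a9, and the median log2 fold change of the 16 was 0.08. Of 12 macrophage markers, 10 were lower in the KO-labelled libraries, with sums of 799 to 970 CPM against 1516 to 1593 CPM in the WT-labelled ones; in such bulk samples, fewer cells of a type and less RNA per cell cannot be told apart. Platelet markers summed to 62.2 to 91.5 CPM in the KO-labelled and 134 to 154 CPM in the WT-labelled libraries, and 3 of 6 tested were lower. Markers of B and plasma cells summed to 547 to 1323 CPM in the KO-labelled and 340 to 399 CPM in the WT-labelled libraries, and 3 of 9 were higher. Of the markers of monocytes and of eosinophils and basophils, 1 of 6 and 1 of 4 tested were lower. Of those of erythroid cells and dividing precursors 0 of 9 and 0 of 8 passed. Of 8 markers of T and NK cells 2 were tested and 0 passed. These 8 summed to 38.28 to 45.15 CPM in the KO-labelled and 32.21 to 39.62 CPM in the WT-labelled libraries. None of the markers in any list was at 0 in all libraries, and the part of other cells in the values below was not tested.

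Neutrophils rely little on mitochondrial respiration and are known to draw most of their ATP from glycolysis. Glucose enters through facilitative transporters, is trapped by hexokinases, is committed to glycolysis by phosphofructokinase, and leaves as lactate. Glucose 6-phosphate can instead enter the pentose phosphate pathway, whose oxidative arm makes the NADPH used by the phagocyte oxidase, or be stored as glycogen, a reserve that neutrophils use at sites poor in glucose.

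Hypoxia-inducible factor, a regulator of many glycolytic genes, binds a core element that reads ACGTG or GCGTG. Only the form ACGTG was looked for, on both strands of RefSeq promoters (build GRCm38.p6), so the shares below leave GCGTG out. The window ran from 250 bases before to 50 bases after each start. A promoter was found for 32 of the 33 genes (all but Slc2a3), and 17 of the 32 (53.1%) held at least 1 match in at least 1 of their promoters. The same was true of 30.0% of the 7833 tested genes with a promoter and of 21.8% of all 27025 genes in that table. The 32 include Pfkm, which was not tested. Counted this way, a gene with several listed promoters can match in any of them. By promoter, 20 of 46 in the list (43.5%) and 6447 of all 32851 (19.6%) held a match. Matches lay in 12 of 19 glycolytic genes (63.2%) and in 1 of 7 pentose phosphate genes (14.3%). The first listed promoter of 4 genes is shown for the results that follow, with matches in capitals: Ldha and Ldhb, isozymes of very unequal level, Slc16a3, the listed gene with the smallest p, and Hk2, whose libraries lay apart in the other direction.
Ldha promoter, chr7:46845554-46845853, plus strand: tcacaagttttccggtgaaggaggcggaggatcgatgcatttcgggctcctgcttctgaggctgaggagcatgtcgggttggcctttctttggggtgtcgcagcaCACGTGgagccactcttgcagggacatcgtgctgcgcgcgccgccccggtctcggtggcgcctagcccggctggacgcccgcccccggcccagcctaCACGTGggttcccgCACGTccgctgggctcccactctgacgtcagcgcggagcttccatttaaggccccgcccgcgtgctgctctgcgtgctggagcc
Ldhb promoter, chr6:142507908-142508207, minus strand: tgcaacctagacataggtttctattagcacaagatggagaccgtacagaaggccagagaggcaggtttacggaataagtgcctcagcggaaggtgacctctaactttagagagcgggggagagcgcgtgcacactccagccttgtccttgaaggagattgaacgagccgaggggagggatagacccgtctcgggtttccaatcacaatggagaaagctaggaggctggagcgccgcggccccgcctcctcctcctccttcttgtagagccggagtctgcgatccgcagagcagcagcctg
Slc16a3 promoter, chr11:120948817-120949116, plus strand: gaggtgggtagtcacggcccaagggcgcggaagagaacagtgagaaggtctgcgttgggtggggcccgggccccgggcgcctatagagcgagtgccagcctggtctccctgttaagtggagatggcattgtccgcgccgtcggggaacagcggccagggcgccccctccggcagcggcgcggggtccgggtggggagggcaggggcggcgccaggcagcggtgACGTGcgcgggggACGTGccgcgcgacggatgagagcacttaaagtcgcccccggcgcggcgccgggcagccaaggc
Hk2 promoter, chr6:82774405-82774704, minus strand: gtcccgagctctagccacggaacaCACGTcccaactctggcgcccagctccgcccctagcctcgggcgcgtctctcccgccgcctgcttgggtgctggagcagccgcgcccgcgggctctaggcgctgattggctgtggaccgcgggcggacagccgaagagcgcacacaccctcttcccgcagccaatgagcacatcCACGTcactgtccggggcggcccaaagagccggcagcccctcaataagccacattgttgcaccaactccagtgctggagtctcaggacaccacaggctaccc
The Ldha promoter held 5 matches, most of them from 2 copies of the palindrome CACGTG, which counts on both strands. The Ldhb promoter held 0, as did a second listed promoter of Ldha. GCGTG, which was not counted, can be read in the Ldha and Ldhb promoters shown. Slc16a3 and Hk2 held 2 matches each. A match is a run of letters and not a shown binding site, and a window without a match says nothing of the factor.

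Levels over the list reached from 0.25 CPM (Pfkm in WT 1) to 1798 CPM (Taldo1 in KO 2), and the most abundant transcripts belonged to the pentose phosphate and glycogen branches rather than to glycolysis. Taldo1 (ENSMUSG00000025503, chromosome 7, 141392199 to 141402968, plus strand, mm10), the transaldolase of the non-oxidative pentose phosphate arm, ranked first. It stood at 1795, 1798 and 1659 CPM in KO 1, 2 and 3 and at 1537, 1567 and 1495 CPM in WT 1, 2 and 3. Pygl (ENSMUSG00000021069, chromosome 12, 70190811 to 70231488, minus strand), the liver-type glycogen phosphorylase, came second, at 1692, 1699 and 1467 CPM in the KO-labelled and 1375, 1459 and 1410 CPM in the WT-labelled libraries. Taldo1 lay above Pygl within every library, while the ranges of these genes overlapped in the KO-labelled group and did not in the WT-labelled group. Next were Pgd, the second dehydrogenase of the oxidative arm (1075 to 1223 CPM in KO-labelled and 970 to 1151 CPM in WT-labelled libraries), and Pkm, pyruvate kinase (ENSMUSG00000032294, chromosome 9, 59656368 to 59679375). Pkm gave 1041, 1124 and 1161 CPM in the KO-labelled and 1059, 1086 and 941 CPM in the WT-labelled libraries. The ranges of Pgd and Pkm overlapped in both groups, and within libraries Pgd lay above Pkm in all but KO 3. At the other end stood Pfkm, Aldoc and Ldhb, isozymes best known from muscle, brain and heart.

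**Figure D1:**
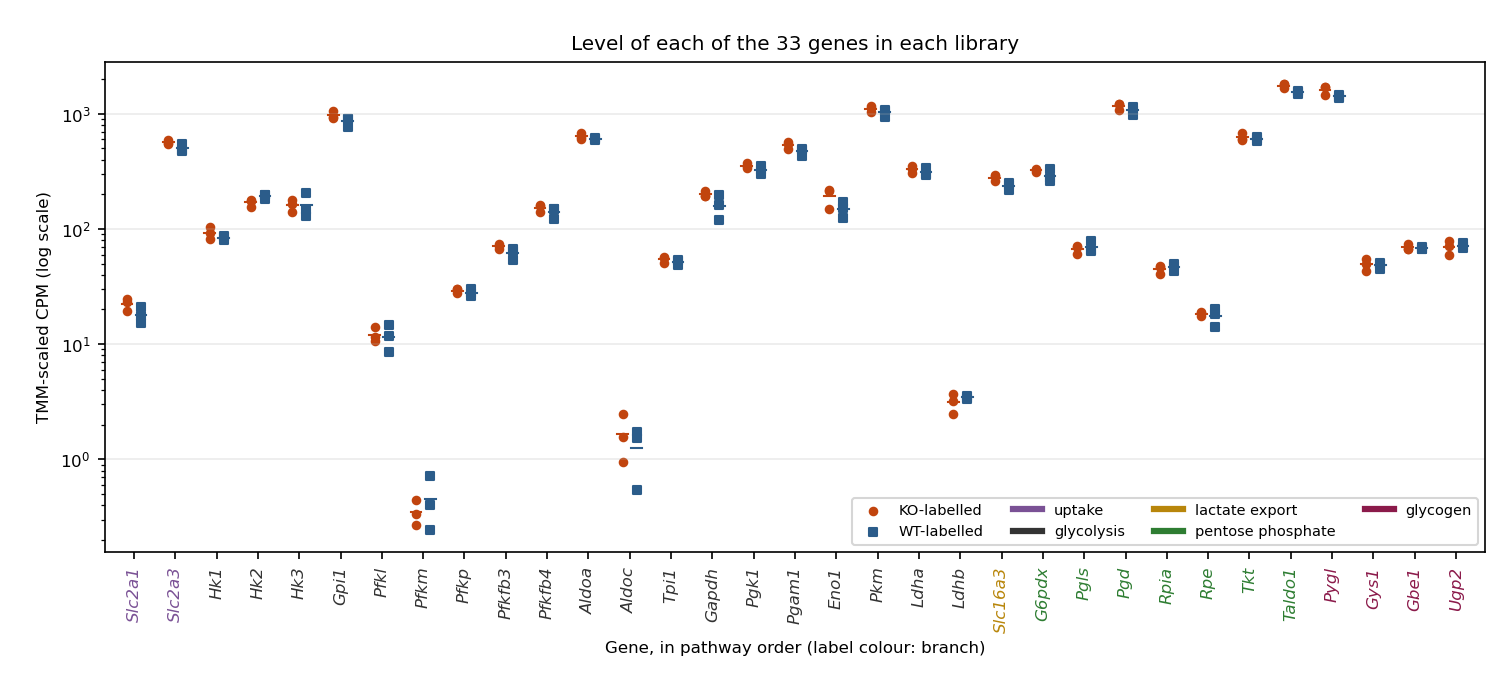
TMM-scaled CPM (log axis) of the 33 genes in pathway order, with KO-labelled libraries as circles on the left of each gene, WT-labelled libraries as squares on the right, and a line at each mean of 3. Taldo1 and Pygl lie highest and Pfkm lowest, and for most genes the points of the groups overlap.

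The list holds 2 glucose transporter genes of very unequal level. Slc2a3, the gene of the high-affinity transporter GLUT3, stood at 544, 559 and 588 CPM in KO 1, 2 and 3 and at 489, 545 and 478 CPM in WT 1, 2 and 3. Slc2a1, the gene of GLUT1, ran from 19.5 to 24.5 CPM in the KO-labelled and from 15.2 to 20.9 CPM in the WT-labelled libraries. Of the counts of these 2 genes, Slc2a3 took 96.2% ± 0.32 (SD, n = 3) in the KO-labelled and 96.6% ± 0.57 (SD, n = 3) in the WT-labelled libraries. Between the groups the libraries of each transporter overlapped, by 1 library in each case, at log2 fold changes of 0.16 (SE 0.08) for Slc2a3 and 0.33 (SE 0.16) for Slc2a1 (adjusted p = 0.445 and 0.454 by edgeR). Slc2a6, a transporter gene of the same family outside the list and named here after its values were seen, lay above Slc2a1, at 51.6 to 68.8 CPM in the KO-labelled and 51.7 to 59.8 CPM in the WT-labelled libraries.

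Hexokinase counts were divided among 3 genes. Hk2 (ENSMUSG00000000628, chromosome 6, 82725025 to 82774454, minus strand) encodes an inducible isozyme that can bind mitochondria, Hk1 the isozyme most widely expressed, and Hk3 one known from myeloid cells. Hk2 stood at 178, 176 and 156 CPM in KO 1, 2 and 3 and at 199, 196 and 181 CPM in WT 1, 2 and 3, all KO-labelled libraries below all WT-labelled ones. It was the 1 gene of 32 tested (3.12%) to lie apart in that direction on this scale, which 9.32% of all tested genes did. The log2 fold change of Hk2 was -0.18 (SE 0.08, unadjusted p = 0.0543, adjusted p = 0.452 by edgeR's quasi-likelihood test). Hk3 ran from 141 to 179 CPM in the KO-labelled and from 131 to 203 CPM in the WT-labelled libraries, and Hk1 from 81.5 to 104 CPM against 80.2 to 86.6 CPM. The share of Hk2 in hexokinase counts was 40.0% ± 3.1 (SD, n = 3) in the KO-labelled and 44.2% ± 5.0 (SD, n = 3) in the WT-labelled libraries, a difference within the spread. The Hk3 share was 38.9%, 33.5% and 41.8% in KO 1, 2 and 3 (exact binomial 95% intervals 37.2 to 40.6%, 31.8 to 35.3% and 40.3 to 43.4%). It was 31.4%, 34.6% and 43.3% in WT 1, 2 and 3 (29.9 to 33.02%, 33.1 to 36.1% and 41.6 to 44.9%). These intervals cover counting error only, and libraries of both groups differed by more than it.

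Phosphofructokinase, the committing step, had low levels. Pfkp, the platelet-type isozyme, was its most abundant gene, at 27.6, 29.9 and 30.0 CPM in KO 1, 2 and 3 and at 29.9, 27.9 and 26.1 CPM in WT 1, 2 and 3. Pfkl, the liver-type isozyme, lay at 10.6 to 14.1 CPM in the KO-labelled and 8.49 to 14.7 CPM in the WT-labelled libraries. Pfkm, the muscle isozyme (ENSMUSG00000033065, chromosome 15, 98092589 to 98132451, plus strand), had 2, 3 and 3 counts in KO 1, 2 and 3 and 2, 7 and 3 counts in WT 1, 2 and 3, and was left out of the tests by the filter on low counts. Exons of Pfkm overlap genes on both strands, so even these counts are uncertain. Pfkp held 70.2% ± 3.0 (SD, n = 3) of the step's counts in the KO-labelled and 70.1% ± 4.1 (SD, n = 3) in the WT-labelled libraries.

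The bifunctional enzymes that set fructose 2,6-bisphosphate, the allosteric activator of phosphofructokinase, gave more tags than that enzyme. Pfkfb4 stood at 140, 162 and 159 CPM in KO 1, 2 and 3 and at 149, 148 and 121 CPM in WT 1, 2 and 3, with overlapping groups. Pfkfb3 ran from 67.3 to 74.5 CPM in the KO-labelled and from 53.4 to 67.1 CPM in the WT-labelled libraries, just short of overlap (log2 0.21, SE 0.10, unadjusted p = 0.0565, adjusted p = 0.459 by edgeR). Without WT 3 it was 0.12 on the log2 scale. The division between them varied little from library to library, Pfkfb4 taking 68.3% ± 1.0 (SD, n = 3) in the KO-labelled and 69.4% ± 0.43 (SD, n = 3) in the WT-labelled libraries.

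**Figure D2:**
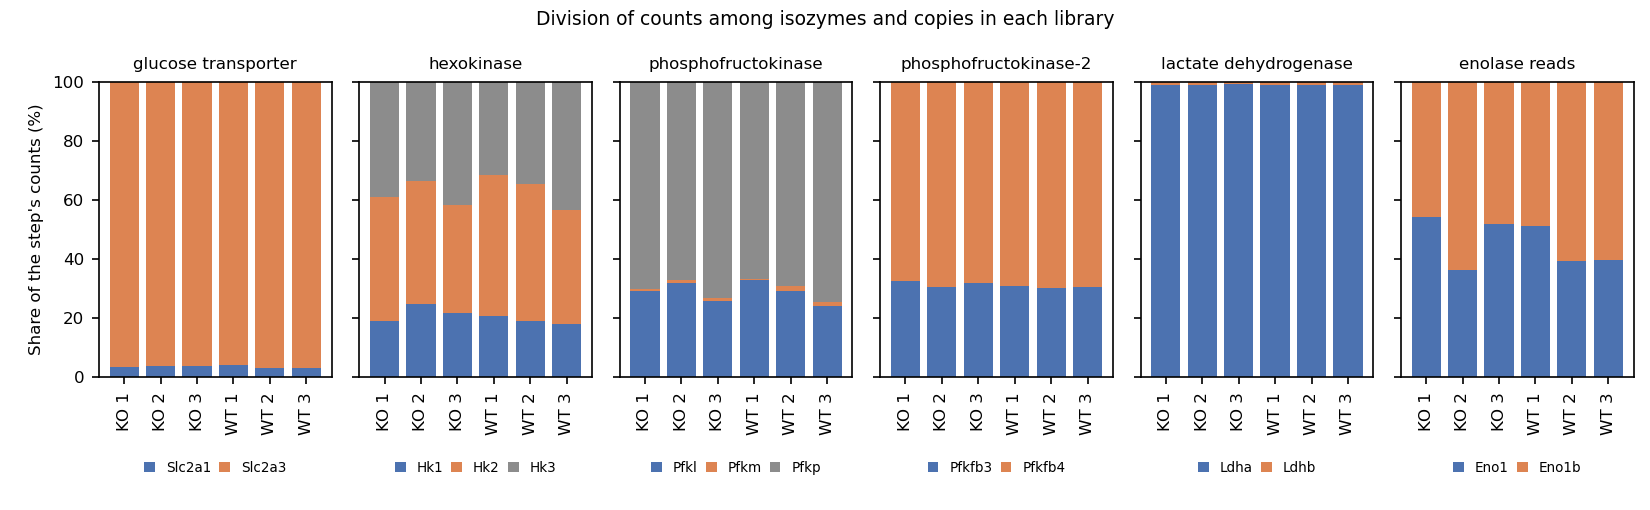
Share of each step's counts (%) taken by each isozyme, and of enolase counts by Eno1 and its copy Eno1b, with 3 KO-labelled libraries left and 3 WT-labelled libraries right in each panel. Slc2a3 and Ldha take nearly all counts of the listed pair they belong to in every library, while Eno1 takes 47.4% ± 9.7 in the KO-labelled and 43.5% ± 6.8 in the WT-labelled libraries (SD, n = 3 each).

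Of the other upper enzymes, Gpi1 and Aldoa were abundant. Gpi1, glucose-6-phosphate isomerase (ENSMUSG00000036427, chromosome 7, 34201330 to 34230336), stood at 943, 1046 and 924 CPM in KO 1, 2 and 3 and at 905, 903 and 764 CPM in WT 1, 2 and 3. All KO-labelled libraries lay above all WT-labelled ones, yet the gene did not pass the test (log2 0.18, SE 0.08, unadjusted p = 0.0460, adjusted p = 0.426 by edgeR). Without WT 3 the log2 fold change was 0.105, and with total counts only 0.08. Aldoa, the main aldolase, gave 598, 674 and 633 CPM in the KO-labelled and 611, 601 and 597 CPM in the WT-labelled libraries, which overlap. Aldoc, the brain isozyme, held under 0.4% of aldolase counts in every library. Tpi1, triose phosphate isomerase, lay at 50.1 to 57.0 CPM in the KO-labelled and 48.8 to 53.4 CPM in the WT-labelled libraries.

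Gapdh (ENSMUSG00000057666, chromosome 6, 125161715 to 125166467), the dehydrogenase of the triose phosphate step often used to normalise expression, had 1 library well below the others. It stood at 194, 212 and 195 CPM in KO 1, 2 and 3 and at 163, 196 and 120 CPM in WT 1, 2 and 3, with WT 3 far below the rest and WT 2 level with KO 1 and 3. Its log2 fold change was 0.32 (SE 0.13, unadjusted p = 0.0279, adjusted p = 0.360 by edgeR). Without WT 3 it was 0.16 (adjusted p = 0.629), and over the 14 alternatives tried the adjusted p ran from 0.0321 (no filter on low counts, the only one to pass) to 0.629. Its last 300 bases share 50-base words with 170 other genes of the table. Those 170 genes held 5.85% of the counts of Gapdh and copies together. Of the other genes in the list, 8 had such copies, and apart from Eno1 these copies held at most 0.625% of the counts.

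Enolase counts were divided between near-identical genes. Eno1, alpha-enolase (ENSMUSG00000063524, chromosome 4, 150236721 to 150248879), has a near-identical copy, Eno1b, which holds 86.9% of the 50-base words in the last 300 bases of the coding Eno1 transcripts. Eno1 stood at 215, 149 and 216 CPM in KO 1, 2 and 3 and at 171, 152 and 124 CPM in WT 1, 2 and 3. Eno1b was at 181, 262 and 202 CPM in the KO-labelled and 162, 233 and 187 CPM in the WT-labelled libraries, so that KO 2 was the lowest KO-labelled library for Eno1 and the highest for Eno1b. Eno1 had the largest log2 fold change of the tested list, 0.38 (SE 0.14, unadjusted p = 0.0152, adjusted p = 0.284 by edgeR). With the counts of both genes summed, a choice made after seeing the data, the levels were 396, 412 and 418 CPM in the KO-labelled and 334, 385 and 310 CPM in the WT-labelled libraries, which no longer overlapped. The log2 fold change of the sum was smaller, 0.25 (SE 0.09), and did not pass either (adjusted p = 0.240 by edgeR). With low counts kept, Eno1 counted without its copy was called (adjusted p = 0.00548), its adjusted p over 14 alternatives running from 0.00548 to 0.531. With the sum and low counts kept, Gapdh was the only gene of the list that was called (adjusted p = 0.0317).

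The remaining enzymes of lower glycolysis lay close together between the groups. Pgam1, phosphoglycerate mutase (chromosome 19, 41911923 to 41918660), stood at 491, 568 and 542 CPM in KO 1, 2 and 3 and at 485, 494 and 433 CPM in WT 1, 2 and 3 (log2 0.18, SE 0.08, unadjusted p = 0.0428, adjusted p = 0.415 by edgeR). KO 1 lay just under WT 2, so the groups overlapped. Pgk1, phosphoglycerate kinase, ran from 336 to 371 CPM in the KO-labelled and from 299.98 to 349 CPM in the WT-labelled libraries. Pkm had a log2 fold change of 0.11 with a 95% interval of -0.05 to 0.27, and 0.05 without WT 3.

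Of the listed lactate dehydrogenase pair, Ldha gave nearly all counts. Ldha (ENSMUSG00000063229, chromosome 7, 46841475 to 46855627), whose enzyme favours lactate formation, stood at 309, 351 and 333 CPM in KO 1, 2 and 3 and at 294, 338 and 301 CPM in WT 1, 2 and 3. Ldhb, whose enzyme favours pyruvate, had 22 to 25 counts in the KO-labelled and 25 to 35 in the WT-labelled libraries. Ldha was 95.5 to 136 times as abundant as Ldhb in the KO-labelled and 85.5 to 94.4 times in the WT-labelled libraries. Their first listed promoters, shown above, held 5 matches to ACGTG and 0, with GCGTG not counted. This pair does not stand for the list. Of its most abundant genes, Taldo1 and Pgd held 0 in each listed promoter and Pygl held 1. Pfkm, the least abundant, held 3 in its first listed promoter. A link between matches and level was not tested.

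Slc16a3, the gene of the lactate exporter MCT4 (ENSMUSG00000025161, chromosome 11, 120948480 to 120960868, plus strand), had the smallest p of the list. It stood at 259, 293 and 287 CPM in KO 1, 2 and 3 and at 220, 248 and 240 CPM in WT 1, 2 and 3. All KO-labelled libraries lay above all WT-labelled ones. The log2 fold change was 0.24 (SE 0.08, 95% interval 0.07 to 0.42, unadjusted p = 0.0097), and the gene did not pass with p adjusted over all genes (0.232 by edgeR). Over the 14 alternatives its adjusted p ran from 0.136 with DESeq2 to 0.587 without WT 1. With total counts only the log2 fold change was 0.14.

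The pentose phosphate genes split into abundant and scarce ones. G6pdx, whose enzyme opens the oxidative arm and makes its first NADPH, lay at 315 to 334 CPM in the KO-labelled and 259 to 329 CPM in the WT-labelled libraries. Pgd was 3.31 to 3.88 times as abundant as G6pdx in the KO-labelled and 3.50 to 3.89 times in the WT-labelled libraries. Pgls, the lactonase between them, lay at 61.2 to 71.6 CPM in the KO-labelled and 64.1 to 79.1 CPM in the WT-labelled libraries. In the non-oxidative arm, Tkt, transketolase, ran from 597 to 679 CPM in the KO-labelled and from 584 to 633 CPM in the WT-labelled libraries. Rpia and Rpe, the isomerase and epimerase of pentose phosphates, stayed below 50 CPM in every library. The log2 fold changes were 0.17 for G6pdx, 0.14 for Pgd, -0.04 for Pgls, 0.04 for Tkt, -0.05 for Rpia and 0.07 for Rpe, none past the threshold, and those of Tkt and Rpe turned below 0 with total counts only. Without 1 library the values ran from 0.10 (without WT 3) to 0.28 (without WT 2) for G6pdx and from 0.07 (without WT 3) to 0.20 (without WT 2) for Pgd.

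Taldo1 was the one pentose phosphate gene whose groups did not overlap. Its log2 fold change was 0.19 (SE 0.07, 95% interval 0.05 to 0.33, unadjusted p = 0.0104), and it did not pass the test (adjusted p = 0.238 by edgeR; 0.126 to 0.576 over 14 alternatives). With total counts only it was 0.09. Its libraries lay apart in the same direction when scaled to total counts only, and no other gene of the list did so. Hk2 and Ldhb lay apart as lower on that scale, on which 2.86% of all tested genes lay apart as higher and 16.8% as lower.

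Glycogen genes were led by the breakdown enzyme. Pygl was 30.8 to 34.03 times as abundant as Gys1, glycogen synthase, in the KO-labelled and 27.1 to 32.4 times in the WT-labelled libraries. Its log2 fold change between groups was 0.195 (SE 0.07, unadjusted p = 0.0170, adjusted p = 0.297 by edgeR), with all KO-labelled libraries above all WT-labelled ones, KO 3 by the smallest margin. Without KO 3 it was 0.26 (adjusted p = 0.141), and over the 14 alternatives the adjusted p ran from 0.141 to 0.624. With total counts only the log2 fold change was 0.09. Gys1, the branching enzyme gene Gbe1 and Ugp2, which makes UDP-glucose, all lay between 43.5 and 78.6 CPM in the KO-labelled and between 45.1 and 75.7 CPM in the WT-labelled libraries. Their log2 fold changes were 0.02, 0.02 and -0.04.

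Over the whole list, no gene passed the test between the groups, while most had a fold change slightly above 0. By edgeR's quasi-likelihood test 0 of 32 tested genes passed at an adjusted p of 0.05, where 1.03% of all 10397 tested genes did (0.24% as higher and 0.789% as lower). Over all genes these were 25 higher and 82 lower calls, and with scaling to total counts only 18 higher and 144 lower. DESeq2 and limma-voom called 0 as well, where they called 1.67% and 0.789% of all genes. With low counts kept the test called 2 of the list, Gapdh and Eno1, and 1.46% of all 19659 genes with a count. At an unadjusted p under 0.05, 7 genes were higher (21.9%, against 5.03% of all tested genes) and 0 lower (against 6.35%). With scaling to total counts only these counts were 0 higher and 1 lower, where 1.46% and 11.6% of all tested genes were. In fits without 1 library 3 were higher and 1 lower without KO 2, and 3 higher and 1 lower without WT 3. Without WT 2, 10 were higher and 0 lower. The share of all tested genes at that p was not counted in these fits, so these counts have no background. The 7 in the reported fit were Gpi1, Gapdh, Pgam1, Eno1, Slc16a3, Taldo1 and Pygl, of which Gapdh and Eno1 have the copies described above. The libraries of the groups did not overlap for 5 genes as higher (15.6%, against 7.48% of all tested genes) and 1 as lower (3.12%, against 9.32%).

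The median log2 fold change of the 32 genes was 0.12, against 0.0057 for all tested genes, and 27 of the 32 lay above 0, where 50.9% of all tested genes did. With scaling to total counts only, the median of all genes moved to -0.10 and that of the list to 0.016, and 17 of 32 lay above 0, as 10 genes turned below it; the distance between the medians was 0.11 on both scales. The median was 0.25 for the 2 transporters, 0.12 for 18 glycolytic genes, 0.07 for 7 pentose phosphate genes and 0.02 for 4 glycogen genes. Outside Aldoc and Ldhb, which had few counts, the 95% intervals of single genes reached at most from -0.42 (Pfkl) to 0.67 (Slc2a1), so larger differences than these lay outside the intervals of those 30 genes.

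**Figure D3:**
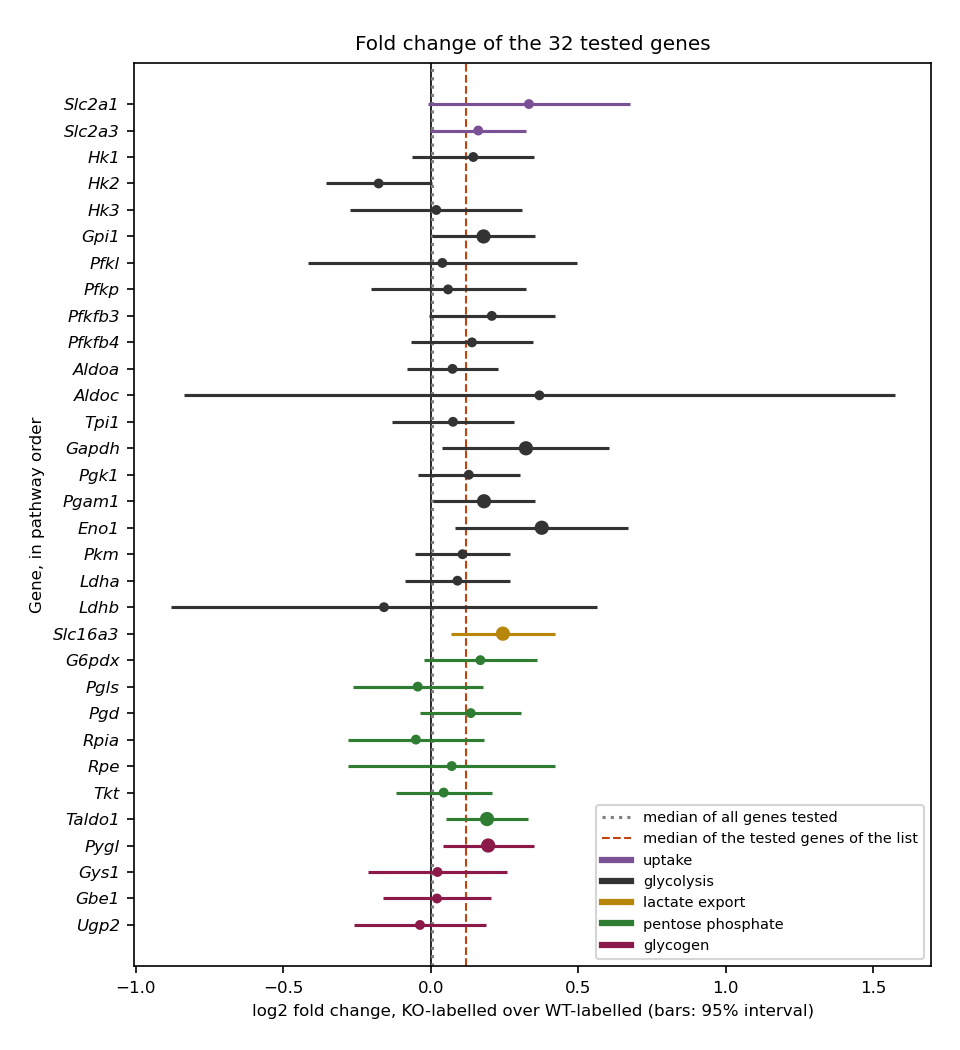
Log2 fold change (KO-labelled over WT-labelled) of the 32 tested genes with 95% intervals, large points marking an unadjusted p under 0.05. The dashed line is the median of the list (0.12) and the dotted line that of all tested genes (0.0057), and most intervals include 0.

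The list is rich in abundant transcripts, and across all tested genes the median log2 fold change rose with level, though not the size of single fold changes. The median log2 fold change of all tested genes was -0.10 below 10 CPM (4462 genes), 0.02 from 10 to 100 CPM (4595 genes), 0.08 from 100 to 1000 CPM (1251 genes) and 0.13 at 1000 CPM and above (89 genes). For the genes of the list the medians in these classes were 0.11 (2 genes), 0.05 (12 genes), 0.15 (14 genes) and 0.16 (4 genes). The part of level in the list's median was not tested.

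**Figure D4:**
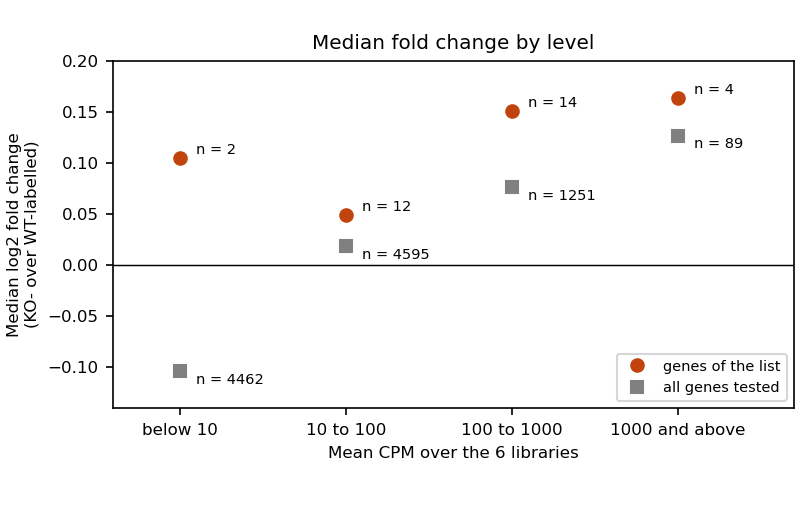
Median log2 fold change (KO-labelled over WT-labelled) by mean CPM over the 6 libraries, for the genes of the list (circles) and all tested genes (squares), with the number of genes beside each point. Both medians are highest at 1000 CPM and above, 0.16 for the list and 0.13 for all tested genes.

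Single libraries stood apart over the list. KO 2 was the highest library for 17 of the 32 tested genes and WT 3 the lowest for 19, against 18.8% and 18.3% of all tested genes. The median level against the WT-labelled mean was 0.04, 0.18 and 0.11 on the log2 scale in KO 1, 2 and 3 and 0.04, 0.04 and -0.08 in WT 1, 2 and 3. KO 1 was thus level with WT 1 and WT 2. Without WT 3 the list's median log2 fold change was 0.07 in place of 0.12. Hk3 and Rpia went the other way in WT 3, where each had its highest level.

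Summed over the list, the 33 genes came to 11611, 12186 and 11468 CPM in KO 1, 2 and 3 and to 10710.0, 11076 and 10090.0 CPM in WT 1, 2 and 3, with every KO-labelled library above every WT-labelled one. As a share of all counts, without TMM factors, they made up 1.131% ± 0.020 in the KO-labelled and 1.098% ± 0.028 in the WT-labelled libraries (SD, n = 3 each), and these shares overlapped. By branch, the ratio of KO-labelled to WT-labelled means of summed CPM was 1.12 for uptake, 1.095 for glycolysis and 1.185 for lactate export. It was 1.103 for pentose phosphate and 1.13 for glycogen. As shares of all counts, the libraries of the groups overlapped for every branch. Mean shares were 0.489% in the KO-labelled and 0.479% in the WT-labelled libraries for glycolysis, and 0.385% and 0.375% for pentose phosphate. For glycogen they were 0.174% and 0.166%. Glycogen sums were 1888, 1881 and 1656 CPM in KO 1, 2 and 3 and 1564, 1640 and 1606 CPM in WT 1, 2 and 3, and Pygl made up most of each.

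**Figure D5:**
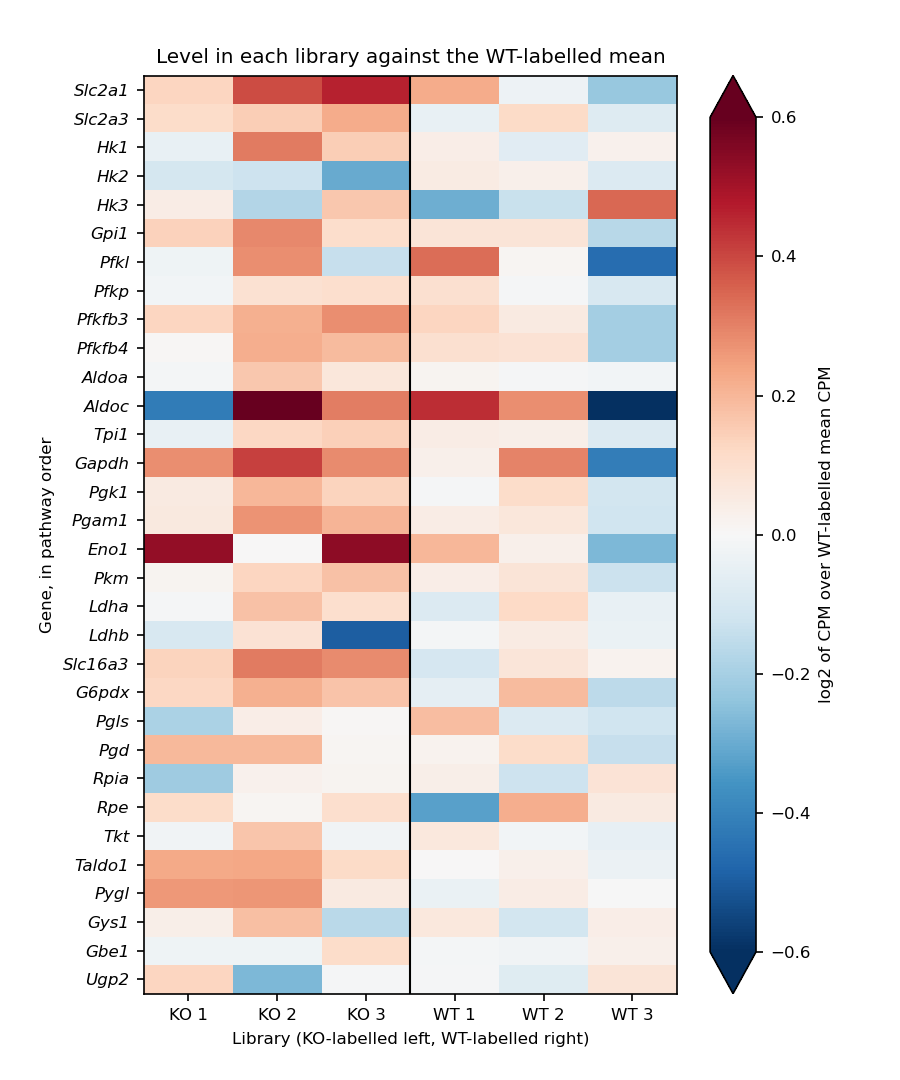
Log2 of each gene's CPM over its WT-labelled mean in the 6 libraries, KO-labelled left and WT-labelled right, for the 32 tested genes. The column of WT 3 is mostly blue (below the mean) and that of KO 2 mostly red (above it). Hk3, Ugp2 and, slightly, Gbe1 go the other way in both.

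A second list of 91 further genes of glucose handling, none of them in the first, held 58 tested genes, and none passed the test by edgeR, as higher or lower. At an unadjusted p under 0.05, 4 were higher (6.90%) and 5 lower (8.62%), close to the 5.03% and 6.35% of all tested genes. Their median log2 fold change was 0.05. Emb, the gene of embigin, a partner protein of monocarboxylate transporters, had the smallest p: 348, 342 and 369 CPM in KO 1, 2 and 3 and 298, 293 and 279 CPM in WT 1, 2 and 3 (log2 0.28, SE 0.07, adjusted p = 0.102 by edgeR). The groups did not overlap, and DESeq2 called it (adjusted p = 0.0133; 0.0133 to 0.296 over the alternatives). Slc16a7, the gene of MCT2, another monocarboxylate transporter, had 10, 10 and 5 counts in the KO-labelled and 25, 28 and 22 counts in the WT-labelled libraries (log2 -1.41, SE 0.48, adjusted p = 0.238 by edgeR). Prps1, which makes phosphoribosyl pyrophosphate from ribose 5-phosphate, was at 3.35 to 6.87 CPM in the KO-labelled and 1.84 to 2.45 CPM in the WT-labelled libraries (log2 1.07, SE 0.37, adjusted p = 0.262 by edgeR). Ldhc, the testis lactate dehydrogenase, was at log2 0.71 (SE 0.29), and Gaa, lysosomal alpha-glucosidase, at -0.75 (SE 0.26). Akr1b3, aldose reductase, was at -0.50 (SE 0.19), also short of the threshold.

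The most abundant gene of that list was Adpgk, an ADP-dependent glucokinase, at 1027, 848 and 985 CPM in KO 1, 2 and 3 and at 770, 886 and 1072 CPM in WT 1, 2 and 3. In tags it stood above each of the 3 hexokinases of the first list in every library, and its groups overlapped. Gyg, glycogenin, which primes glycogen, lay at 163 to 195 CPM in the KO-labelled and 141 to 173 CPM in the WT-labelled libraries. No count at all was seen for 11 of the 91 genes.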

How the data were processed

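The authors deposited whole-number read counts per Ensembl gene for 6 libraries, not scaled between them. The submitters' processing notes name RSEM 1.2.3, DESeq2 and mm10, but for no given step. Which aligner, annotation, strand setting and filters were applied was not given in the sources used here. Reads that fit several genes are divided among them by RSEM, and overlapping genes cannot be told apart where the strand setting is unknown: exons of 13 of the 33 genes overlap a gene on the other strand and of 4 a gene on the same strand. Tags beyond an annotated 3′ end may go uncounted, which can lower a gene's level against others.

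Columns were matched to samples by name, and names and positions came from GENCODE vM21 (GRCm38), which named 51596 of 51789 identifiers. The test on counts was edgeR's (version 4.0.16, R 4.3.3; glmQLFit, glmQLFTest, TMM factors, filterByExpr with a minimum count of 10, group as the only term), with Benjamini-Hochberg adjustment over the 10397 genes tested and a threshold of 0.05. The procedure was also run on simulated counts, with changes larger than any in the tested list. Recovery of changes as small as those here was not tested. SE is the log2 fold change over the square root of F, with a median of 0.125 at 10 CPM and above, and 1 count was worth 0.102 to 0.147 CPM. SD is over 3 libraries. All 33 genes are accounted for; library values are given for those at an unadjusted p under 0.05, the most abundant of each isozyme step and branch, and Pfkm. Of the second list the text names the 6 genes with the smallest p and the 4 most abundant. The genes and lists were chosen with earlier results of these data known. Alternatives were RLE, upper-quartile and total-count scaling, low counts kept, a minimum of 5 CPM in 3 libraries, DESeq2 1.42.0, limma-voom (limma 3.58.1), a replicate block, leaving out each library, and, chosen after seeing the data, Eno1 and Eno1b summed.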

Additional observations from a re-analysis of the deposited data

How the results depend on the processing

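No gene of the list was called under any scaling, the stricter filter, DESeq2, limma-voom, the replicate block or any fit without 1 library; with no filter 2 were called, and 1 with Eno1 and Eno1b summed as well. The list's median log2 fold change of 0.12 was 0.016 with total counts only and ran from 0.072 (without WT 3) to 0.17 (without WT 2) in fits without 1 library. Calls over all genes, 107, were 162 with total counts only, 287 with no filter, 174 with DESeq2, 182 at an adjusted p under 0.10, 46 under 0.01, and 49 to 97 without 1 library. Of the second list DESeq2 called 1 gene, Emb. Same-numbered libraries did not deviate together (correlations -0.03, -0.01 and -0.13), and no KO-labelled library correlated best with its own number, so the numbers were not read as pairs. With the number as a replicate block 92 genes were called, 0 of them in the list, whose median was 0.12.

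Of 32 tested genes of the list, 18 kept their sign in every fit that held them. With total counts only the log2 fold changes were -0.082 for Gys1, -0.062 for Pfkl, -0.044 for Pfkp, -0.061 for Tkt, -0.082 for Gbe1, -0.027 for Tpi1, -0.087 for Hk3, -0.030 for Rpe, -0.031 for Aldoa, -0.013 for Ldha and -0.037 for Adpgk, all above 0 in the reported fit. Upper-quartile factors gave -0.0013 for Gbe1 and -0.0034 for Hk3, and the filter of 5 CPM -0.0011 for Hk3. Without 1 library the range was -0.096 to 0.058 for Pgls, -0.11 to 0.024 for Rpia, -0.13 to 0.062 for Ugp2, -0.063 to 0.11 for Gys1, -0.017 to 0.65 for Aldoc, -0.13 to 0.24 for Pfkl, -0.022 to 0.078 for Tkt, -0.029 to 0.046 for Gbe1, -0.11 to 0.23 for Hk3, -0.065 to 0.20 for Rpe, -0.038 to 0.21 for Adpgk and -0.022 to 0.30 for Eno1b. Genes at an unadjusted p under 0.05 also shrank with total counts only, to 0.22 for Gapdh, 0.28 for Eno1 and 0.08 for Pgam1. Hk2 moved to -0.28. The TMM factors, left out with total counts only, were 0.965, 0.949 and 0.980 in KO 1, 2 and 3. In WT 1, 2 and 3 they were 1.035, 1.015 and 1.061. Without the factors the median log2 fold change fell from 0.0057 to -0.098 for all tested genes and from 0.12 to 0.016 for the list. Why the factors lay apart between the groups was not tested. Counts of 2 to 35 a library limit what can be seen for Pfkm, Aldoc and Ldhb.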
